A study of Mus musculus with 7 samples.

Results

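Pericytes are the mural cells that lie along brain capillaries, and the library described here holds pericytes grown in culture after isolation from mouse cerebrum (PC). Its members are all barcodes of that library with 500 or more unique molecular identifiers (UMIs): 290 of its 296 barcodes, among 1124 cells in the 7 libraries of the series. The cells came from C57BL/6 mice, were kept in pericyte medium and carried no introduced factor. The libraries set beside it were primary brain oligodendrocyte progenitors (pOPC, 134 cells, OPC medium), untransduced embryonic fibroblasts (MEF, 131 cells, MEF medium), and fibroblasts or pericytes transduced with viruses carrying Olig2 and Sox10 (MEF-2F, 82 cells; PC-2F, 179 cells) or these with Nkx6.2 (MEF-3F, 161 cells; PC-3F, 147 cells). The labels place the converted cells in OPC medium, so PC differs from PC-2F and PC-3F in culture medium as well as in the factors, and the 2 cannot be told apart. All libraries were made with droplet capture and 3′ tagging, which counts about 1 tag per transcript whatever its length, so levels of different genes can be set side by side.

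Each population was 1 library, so no difference below has a replicate check, none was tested, and no p-value is given: each comparison sets 2 libraries side by side, not 2 conditions. The deposited values are codes for UMI counts and were decoded by an inference that no label states, on which every level rests. A level is the UMIs of a gene summed over cells, per 1000000 UMIs of the library (CPM). Ranges in brackets are exact 95% intervals, of the Poisson distribution for levels, of the binomial distribution given both counts for folds, and Clopper-Pearson for shares of cells, and cover counting error only. A count of 0 was set to 3 UMIs in folds, which are then written as "at least". The PC library held 1292228 UMIs, a median of 3775 UMIs and 2060 genes per cell, and 0.137% mitochondrial UMIs. The other libraries held from 229860 (MEF-2F) to 1198951 (PC-2F) UMIs, with medians of 1866 to 6259 per cell and mitochondrial shares of 0.217% to 1.63%. No barcode was shared between libraries, and no doublet caller was run. The PC barcodes form 2 blocks, decoded separately, that the labels do not explain, of 39 and 251 kept cells. They are not replicates, and values by block are given for some of the genes that differ between them, not for all. Xist, the RNA of the inactive X chromosome, had 22 UMIs in PC, 27 in PC-2F and 19 in PC-3F, and the Y-linked Ddx3y, Eif2s3y and Kdm5d had no UMI in these 3 libraries, whereas Ddx3y had 38 UMIs in pOPC and 71 in MEF. Xist had 0 UMIs in pOPC and 1 in MEF, and MEF-2F and MEF-3F held both, with 13 and 28 UMIs of Xist and 13 of Ddx3y each.

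Pericytes take part in the blood-brain barrier and regulate capillary tone, and platelet-derived growth factor (PDGF) from endothelial cells keeps them on the vessel wall through the receptor PDGFRβ. Freshly isolated brain pericytes are known by Pdgfrb, Cspg4, Rgs5, Kcnj8, Abcc9, Vtn and Higd1b. In culture such cells spread and divide, deposit basement membrane and collagen, and lose many of the markers that they carry in the tissue. Osteopontin, a secreted phosphoprotein that binds integrins and CD44, and the calcium-binding protein S100A4 are products of activated mesenchymal cells.

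The library was led by osteopontin. Spp1 (GRCm38 chromosome 5, 104435118 to 104441050, plus strand), the osteopontin gene, stood at 11117 CPM (10936 to 11301) in PC, 14.2 CPM in pOPC, 624 CPM in MEF, 131 CPM in MEF-3F, 1457 CPM in MEF-2F, 3416 CPM in PC-2F and 5418 CPM in PC-3F. Only Actb, the cytoplasmic actin gene, had a higher level in PC (14496 CPM) when mitochondrial and ribosomal protein genes are set aside. PC was 17.8-fold (16.3 to 19.5) above MEF, 3.25-fold (3.14 to 3.37) above PC-2F and 2.05-fold (1.98 to 2.13) above PC-3F for Spp1. With every cell thinned to 1000 UMIs, 95.9% (92.7 to 97.9) of 267 PC cells held a Spp1 UMI, against 29.8% of 178 PC-2F cells, 26.7% of 146 PC-3F cells, 16.3% of 129 MEF cells and 1.72% of 116 pOPC cells. These are shares of cells with a UMI at that depth, not of cells that express the gene, and the background from free RNA was not measured. Without thinning the PC share was 97.6%. Among the 267 PC cells with at least 1000 UMIs the level per cell had quartiles of 3398 and 15418 CPM around a median of 7985 CPM, and the highest cell reached 94086 CPM.

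S100a4 (chromosome 3, 90603771 to 90606045), whose product binds calcium and acts on the cytoskeleton of moving cells, was at 2325 CPM (2242 to 2409) in PC, 0 in pOPC, 83.6 CPM in MEF, 45.8 CPM in MEF-3F, 144 CPM in MEF-2F, 208 CPM in PC-2F and 192 CPM in PC-3F. PC lay 11.2-fold (9.83 to 12.8) above PC-2F, the next library in the order, and 27.8-fold (21.8 to 36.1) above MEF. S100a6, of the same family and also on chromosome 3, followed the same order only in part. It was at 4964 CPM in PC, 1.69-fold (1.62 to 1.78) above MEF and 9.98-fold (9.18 to 10.9) above PC-2F. S100a4 differed between the 2 barcode blocks, at 658 CPM in the first and 2560 CPM in the second, 3.89-fold (3.2 to 4.77) apart, and both blocks lay above every other library. Spp1 did not show such a gap, at 10255 and 11239 CPM.

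**Figure D1:**
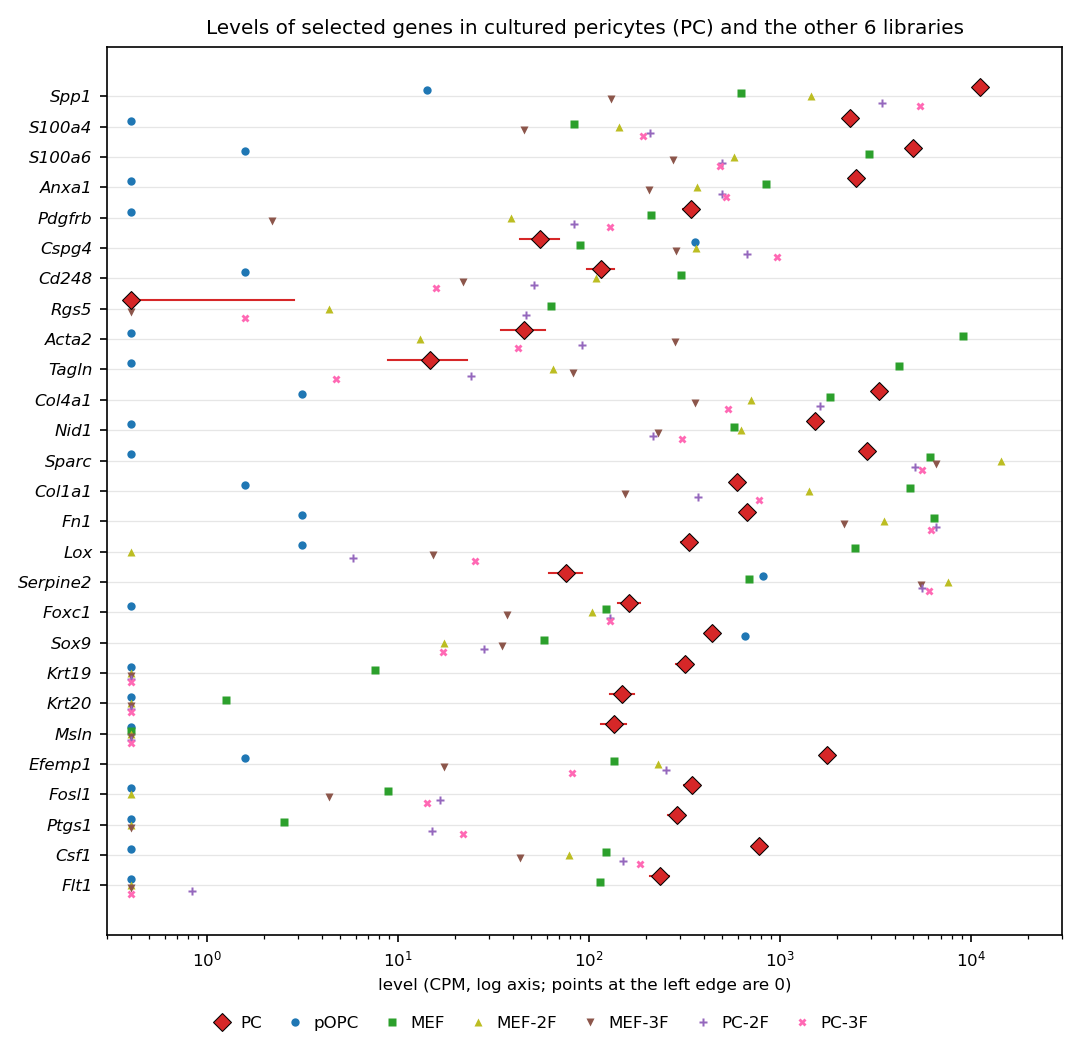
Levels of 27 genes (rows) in the 7 libraries on a log axis in CPM, each point 1 library, with points at the left edge at 0 and bars for the exact 95% interval of PC. PC is the highest point for Spp1 (11117 CPM), S100a4 (2325 CPM) and Krt19 (317 CPM), and at 0 for Rgs5.

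The label was then checked against pericyte markers, and the result was mixed. Pdgfrb, the receptor for PDGF-B, was at 344 CPM (312 to 377) in PC, 0 in pOPC, 213 CPM in MEF, 2.18 CPM in MEF-3F, 39.2 CPM in MEF-2F, 83.4 CPM in PC-2F and 129 CPM in PC-3F, so that PC was the highest library, 1.62-fold (1.35 to 1.94) above MEF. Cspg4, the NG2 proteoglycan of pericytes and of oligodendrocyte progenitors alike, was at 55.7 CPM (43.6 to 70.2) in PC, the lowest level of the 7 libraries, against 361 CPM in pOPC, 89.9 CPM in MEF, 675 CPM in PC-2F and 969 CPM in PC-3F. Cd248 (endosialin) stood at 115 CPM in PC, 2.64-fold (2.14 to 3.26) under the 304 CPM of MEF, and Foxf2, a forkhead factor of brain pericytes, at 43.3 CPM, while Tbx18 was at 20.9 CPM and Mcam at 7.74 CPM against 192 CPM in MEF and 517 CPM in PC-2F. For Rgs5, a regulator of G-protein signalling and a leading marker of brain capillary pericytes, no UMI was listed in PC, against 63.3 CPM in MEF and 46.7 CPM in PC-2F, at least 27.3-fold and 20.1-fold higher. Of 20 pericyte markers, 11 had a UMI in PC, 6 reached 20 CPM and 9 had none, among them Kcnj8, Abcc9, Vtn and Higd1b. The library therefore carries Pdgfrb but not the set that marks pericytes in the tissue, and it is called by its label, PC, from here on.

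Markers of other cells were read in the same way. The summed level of 14 oligodendrocyte lineage markers was 190 CPM in PC against 8799 CPM in pOPC, and for Olig2, Sox10 and Olig1 no UMI was listed. Of 14 microglia and macrophage markers 10 had none either, among them C1qb, C1qc, Tyrobp and Lyz2, and Csf1r and Cd68 had 11 UMIs each and the leukocyte gene Ptprc 1. The other one, Tmem119, was at 69.6 CPM in PC and 62.1 CPM in MEF, whereas C1qb reached 46.9 CPM and Lyz2 217 CPM in MEF. Of 10 neuronal markers 8 were at 0, Dcx, Elavl3 and Snap25 among them, while Tubb3 was at 50.3 CPM (91.2 CPM in MEF). Of 10 astrocyte markers 7 were at 0, with Gfap, Aqp4, Slc1a3 and Fabp7 among them, while Gja1, a gap junction protein, was at 226 CPM (251 CPM in MEF and 0 in pOPC). Sox9, a factor of glial and skeletal progenitors, was at 442 CPM (406 to 480) in PC, between 658 CPM in pOPC and 58.3 CPM in MEF, and its levels in PC-2F and PC-3F were 28.4 and 17.3 CPM. The endothelial genes split: Flt1, a receptor for vascular endothelial growth factor, was at 234 CPM (209 to 262) in PC and 114 CPM in MEF and at most 0.834 CPM in the other 5 libraries, and Kdr, the second receptor of that factor, was at 24.0 CPM, but the defining endothelial gene Pecam1 had 3 UMIs and for Cdh5, Cldn5, Tek and Tie1 no UMI was listed in PC.

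Genes that mark position in the body were read next. Nr2f1, a nuclear receptor of the developing cortex, was at 391 CPM in PC, 269 CPM in pOPC, 22.8 CPM in MEF, 133 CPM in MEF-3F, 135 CPM in MEF-2F, 154 CPM in PC-2F and 145 CPM in PC-3F, so that PC was the highest library and MEF the lowest. None of the Hox genes on the list, which mark levels of the trunk, had a UMI in PC: Hoxa5, Hoxa7, Hoxb9 and Hoxc6 stood at 55.7, 31.7, 24.1 and 38.0 CPM in MEF and at 0 in PC and pOPC. Foxc1, a factor of the meninges and of neural crest mural cells, was at 163 CPM in PC and 123 CPM in MEF, and of the 16 meningeal fibroblast markers 7 had a UMI in PC, Aldh1a2, Ptgds and Slc6a13 not among them.

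Against MEF, the other primary mesenchymal culture, PC had low levels of contractile genes. Of 14 contractile genes, all measured (at least 10 UMIs and 20 CPM on either side of the comparison), 0 were higher in PC and 12 lower by at least 2-fold, the interval leaving out 1; over the 8122 genes measured, that rule called 20.5% higher and 15.9% lower in PC than in MEF. The median log2 ratio of the list was -5.63 (-5.35 with absent genes at 3 UMIs) beside 0.16 over all genes. Acta2, the smooth muscle actin gene, was at 45.7 CPM in PC and 9107 CPM in MEF, 199-fold (154 to 262) lower in PC. Acta2 in the other libraries ran from 0 in pOPC and 13.1 CPM in MEF-2F to 42.5 CPM in PC-3F, 92.6 CPM in PC-2F and 284 CPM in MEF-3F. Tagln, which encodes the actin-binding transgelin, was at 14.7 CPM against 4218 CPM in MEF, and for Myh11 and Cnn1, smooth muscle myosin and calponin, no UMI was listed in PC. Cnn2, a calponin of nonmuscle cells, was the highest of the list in PC at 776 CPM, against 988 CPM in MEF. Of the pericyte markers, 11 were measured in this comparison, and 1 (Foxf2) was higher and 6 lower in PC, with a median of -1.40. Targets of TGF-beta and YAP were lower too, 9 of 14 against 2 higher with a median of -1.19, with Thbs1 at 118 CPM in PC and 6714 CPM in MEF. The 2 higher were Tgfb1 and Axl, a receptor tyrosine kinase, the latter at 761 CPM in PC and 290 CPM in MEF.

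Fibroblast and collagen genes gave the same order. Of 16 measured fibroblast markers, 12 were lower and 2 higher in PC than in MEF, the 2 being S100a4 and Pdgfra, and the median log2 ratio was -3.12 beside 0.16 over all genes. For Dcn, which encodes the small proteoglycan decorin and is a common fibroblast marker, no UMI was listed in PC, against 161 CPM in MEF, 194 CPM in PC-2F and 506 CPM in PC-3F; Lum had 0.774 CPM and Postn 10.1 CPM. Col1a2 was at 2793 CPM in PC and 7437 CPM in MEF, Col1a1 at 600 and 4816 CPM, Col3a1 at 184 and 2091 CPM, and Fn1, fibronectin, at 676 and 6417 CPM. Lox, a collagen crosslinking enzyme, had 333 CPM in PC, 2474 CPM in MEF and at most 25.2 CPM in the other 5. Over the 23 collagen and crosslinking genes 14 were lower and 5 higher in PC than in MEF (median -2.14), and against PC-2F 5 were lower and 8 higher of 21 (median 0.64, beside -0.05 over all genes).

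Basement membrane genes followed 2 patterns. Col4a1, the type IV collagen chain of vascular basement membrane, was at 3303 CPM (3204 to 3403) in PC, 3.16 CPM in pOPC, 1830 CPM in MEF, 358 CPM in MEF-3F, 709 CPM in MEF-2F, 1621 CPM in PC-2F and 534 CPM in PC-3F, so that PC was 1.8-fold (1.7 to 1.92) above MEF and 2.04-fold (1.93 to 2.15) above PC-2F. Nid1, nidogen, was at 1534 CPM against at most 626 CPM elsewhere. Other members were low: Lama4, the laminin chain of vessels, stood at 9.29 CPM and Agrn, agrin, at 6.96 CPM, both at least 4-fold under each other library, and for Nid2 no UMI was listed. Sparc, a secreted collagen-binding protein, was at 2846 CPM in PC and between 5127 CPM (PC-2F) and 14409 CPM (MEF-2F) in MEF and the 4 converted libraries. Of 17 measured members 3 were higher and 8 lower in PC than in MEF (median -0.81), and of 16 measured 2 were higher and 7 lower than in PC-2F (median -0.86), where the 2-fold rule called 12.8% higher and 17.7% lower of all 8341 genes.

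The S100 and annexin genes, calcium-binding proteins of membrane and cytoskeleton, were high in PC in every comparison. Their summed level was 19140 CPM in PC, 10346 CPM in MEF and between 361 CPM (pOPC) and 5106 CPM (PC-2F) elsewhere. Of the 14 or 15 measured, 14 were higher in PC than in pOPC (20.6% of all 8754 genes), 7 than in MEF, 11 than in MEF-2F (20.3% of 7833, with 19.8% lower), 12 than in MEF-3F (19.5% of 8801, with 26.1% lower), 10 than in PC-2F and 9 than in PC-3F (15% of 8397, with 18.8% lower). The median log2 ratio of the group lay between 0.93 (MEF) and 8.0 (pOPC, 6.12 with absent genes at 3 UMIs), beside -0.28 to 0.16 over all genes. Only Anxa8 was lower than in MEF by that rule, and no member was called lower against the other 5; Anxa6, at 265 CPM in PC and 500 CPM in MEF, was 1.89-fold lower, short of that rule. Anxa1 was at 2505 CPM and at most 846 CPM elsewhere, Anxa2 at 2490 and at most 1413 CPM, and S100a11 at 1455 and at most 876 CPM. Of 19 actin and focal adhesion genes measured, 5 stood higher and 1 lower in PC than in MEF (median log2 ratio 0.04). Tmsb4x, thymosin beta 4, was at 5487 CPM (6127 CPM in MEF) and Lgals1, galectin-1, at 4900 CPM (4761 CPM in MEF). Gsn, the actin-severing protein gelsolin, was at 2736 CPM in PC and at most 712 CPM elsewhere.

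**Figure D2:**
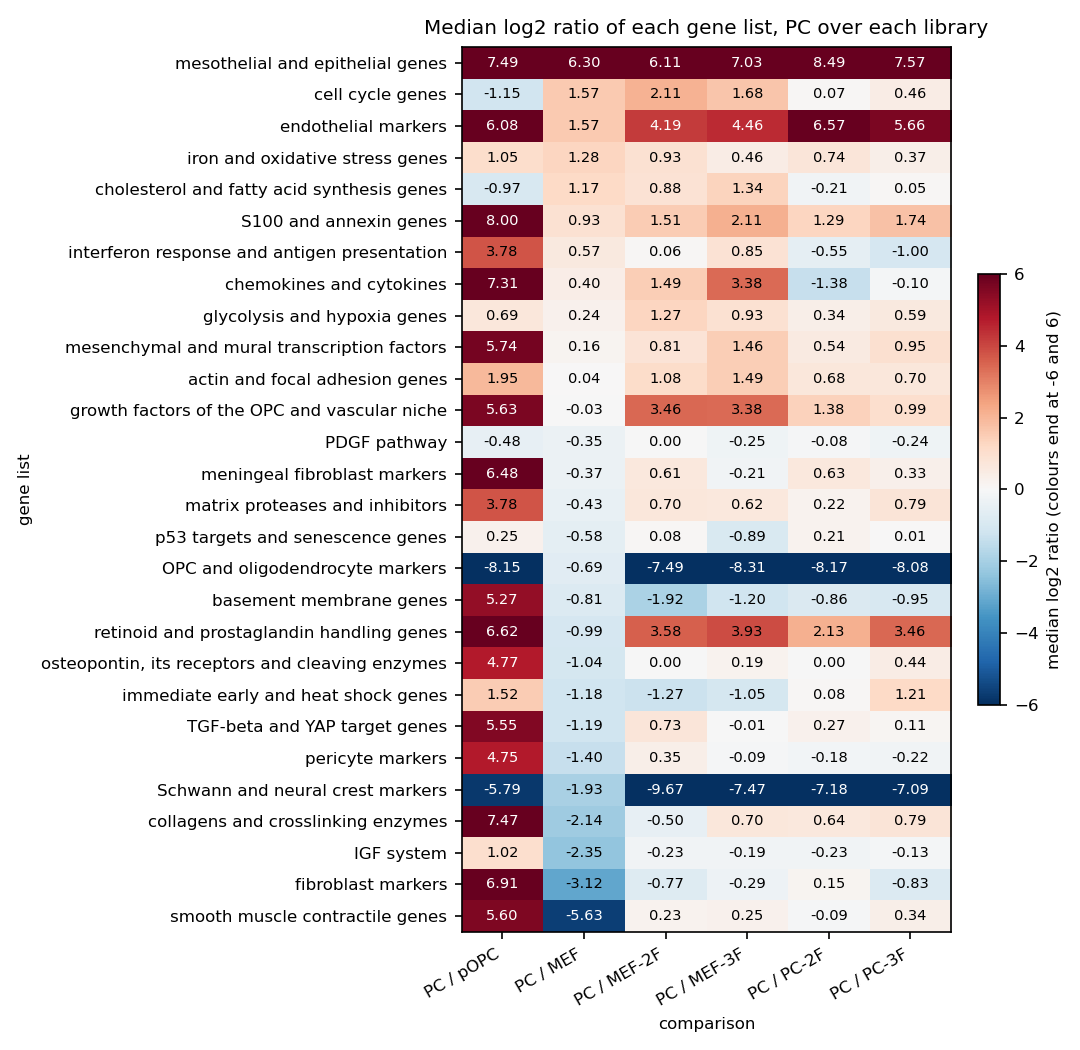
Median log2 ratio of PC over each of the 6 other libraries (columns) for the gene lists with 3 or more measured members in every comparison (rows), with 0.5 UMIs added per library, sorted by the ratio to MEF. Contractile genes are lowest against MEF (-5.63), S100 and annexin genes are above 0 in all columns, and cell cycle genes are below 0 only against pOPC (-1.15).

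Counted over all genes, differences of at least 4-fold whose whole interval lay past 2-fold were as follows. Against PC-2F, 350 of 8341 genes (4.2%) were higher in PC and 679 (8.14%) lower, and against PC-3F 402 of 8397 (4.79%) higher and 710 (8.46%) lower. Against MEF 455 of 8122 genes (5.6%) were higher and 603 (7.42%) lower. Against pOPC 1029 of 8754 (11.8%) were higher and 1109 (12.7%) lower, against MEF-2F 415 of 7833 (5.3%) and 807 (10.3%), and against MEF-3F 624 of 8801 (7.09%) and 1142 (13%). Across 10144 genes measured in any library, the log2 levels of PC had Pearson correlations of 0.765 with PC-2F, 0.763 with MEF, 0.738 with PC-3F, 0.595 with MEF-2F, 0.591 with MEF-3F and 0.511 with pOPC, which is a description across genes that share 1 PC library; the 2 PC blocks gave 0.916 with each other. By this measure PC stood about as near to MEF as to PC-2F, but the libraries differ in UMIs and no correlation was taken at equal depth. Counting noise is larger in the shallower libraries, so the order of the values is not one of likeness alone. Scaling by a trimmed mean of log ratios moved all log2 ratios by 0.34 for pOPC, 0.16 for MEF-2F and 0.23 for MEF-3F and by less than 0.1 for the others, and turned the pOPC counts to 1231 higher and 817 lower and the MEF-3F counts to 796 higher and 947 lower.

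The genes that set PC apart from all the others were few: 54 of 10144 (0.532%) were at least 4-fold higher than in each of the 6 other libraries, each with an interval beyond 2-fold. The library next below PC was PC-2F for 21 of them, MEF for 16, PC-3F for 10, and MEF-2F and MEF-3F for 3 each. For the other 1, Msln, no UMI was listed in any of the 6 other libraries, so none was next. Without MEF-2F, which has the fewest UMIs, the count was 88. With the first barcode block alone it was 84, of which 38 were among the 54, and with the second alone 55, sharing 53.

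S100a4 is one of the 54, and keratins and mesothelin stood near their top. Krt19 (chromosome 11, 100140810 to 100148665), a type I keratin of simple epithelia, was at 317 CPM (287 to 350) in PC, 7.6 CPM in MEF and 0 in the other 5 libraries, 41.8-fold (19 to 114) above MEF and at least 24.3-fold above MEF-2F. Krt20, from the same keratin cluster on chromosome 11, was at 149 CPM in PC (257 CPM in the first barcode block and 134 CPM in the second), 1.27 CPM in MEF and 0 elsewhere. Msln, mesothelin, a surface protein of the mesothelial lining, was at 135 CPM (115 to 156) in PC, with 219 CPM in the first barcode block and 123 CPM in the second. It was at 0 in all 6 others, so the folds are bounds set by the depth of each library, from at least 10.3-fold (MEF-2F) to at least 53.8-fold (PC-2F). Of the 20 mesothelial and epithelial genes listed 14 had no UMI in PC, among them Krt8, Krt18, Epcam, Cdh1, Wt1 and Upk3b. Krt7, another keratin, had 8.51 CPM. So 3 genes of this list were high and its other members were at or near 0.

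Some of the 54 encode proteins of the matrix or its receptors. Efemp1 (chromosome 11, 28853204 to 28926743), which encodes the elastic fibre glycoprotein fibulin-3, was at 1758 CPM (1687 to 1832) in PC, 1.58 CPM in pOPC, 135 CPM in MEF, 17.5 CPM in MEF-3F, 231 CPM in MEF-2F, 254 CPM in PC-2F and 81.9 CPM in PC-3F. PC was 6.93-fold (6.15 to 7.84) above PC-2F, and 80.9% of thinned PC cells held an Efemp1 UMI. Emilin2, an elastin-associated glycoprotein, was at 173 CPM and at most 8.34 CPM elsewhere, Npnt, nephronectin, at 152 CPM and at most 24.1 CPM, and Lgals3, galectin-3, at 383 CPM and at most 45.6 CPM. Npnt was at 62.6 CPM in the first barcode block, nearer to the 24.1 CPM of MEF, and at 164 CPM in the second. Itga5, the fibronectin receptor chain, was at 85.9 CPM against at most 12.7 CPM, with 200 CPM in the first block and 69.8 CPM in the second. Serpinb2, an inhibitor of plasminogen activators, had 64.2 CPM and at most 1.67 CPM elsewhere.

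Some of the 54 act in signalling. Ptgs1, the constitutive cyclooxygenase, was at 288 CPM in PC, 22.1 CPM in PC-3F, 15 CPM in PC-2F, 2.53 CPM in MEF and 0 in the other 3, and Ptges, which makes prostaglandin E from its product, was at 106 CPM and at most 22.8 CPM elsewhere. Csf1, the macrophage growth factor, was at 779 CPM (732 to 829) in PC, 0 in pOPC, 123 CPM in MEF, 43.7 CPM in MEF-3F, 78.3 CPM in MEF-2F, 151 CPM in PC-2F and 184 CPM in PC-3F, and PC was 4.23-fold (3.49 to 5.17) above PC-3F. Kitl, the ligand of the receptor Kit, stood at 185 CPM and at most 42.5 CPM elsewhere. Its level was 87.7 CPM in the first barcode block, nearer to the 42.5 CPM of PC-2F, and 199 CPM in the second. Sgk1 and Tsc22d3, both known to respond to glucocorticoids, were at 987 and 370 CPM, 6.3-fold (4.53 to 9.04) above MEF-2F and 5-fold (3.7 to 6.89) above PC-3F, the next libraries. Sema3a, a repulsive guidance cue, was at 193 CPM and at most 31.7 CPM elsewhere. Ctla2a (753 CPM) and Klra4 (121 CPM) belong to families of close copies, whose tags cannot be told apart with certainty.

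**Figure D3:**
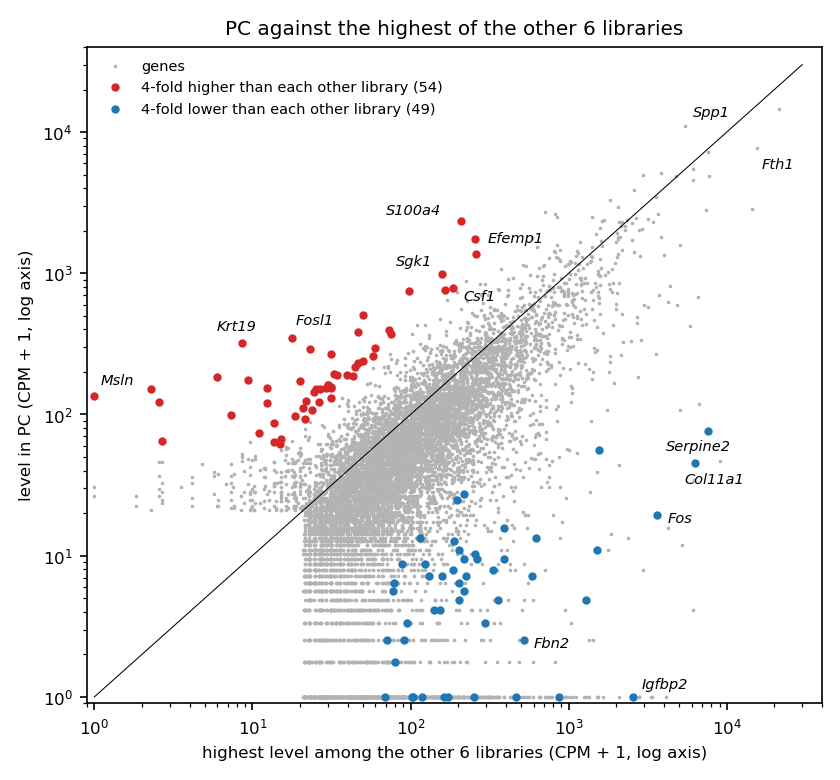
Level of each gene in PC (vertical axis, CPM + 1) against its highest level among the other 6 libraries (horizontal axis, CPM + 1), both on log axes, with the line of equal levels. The 54 red genes are at least 4-fold higher in PC than in each other library and the 49 blue genes at least 4-fold lower, while Spp1, at 11117 CPM, lies only 2.05-fold above PC-3F and is not among the 54.

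Fosl1, which encodes the AP-1 subunit Fra-1, was at 347 CPM (316 to 381) in PC, 0 in pOPC and MEF-2F, 8.86 CPM in MEF, 4.37 CPM in MEF-3F, 16.7 CPM in PC-2F and 14.2 CPM in PC-3F, 20.8-fold (13.3 to 34.4) above PC-2F. The immediate early subunits Fos and Fosb ran the other way over the whole library: Fos was at 18.6 CPM in PC against 96.5 CPM in pOPC, 168 CPM in PC-2F, 189 CPM in PC-3F, 669 CPM in MEF, 3555 CPM in MEF-3F with 3611 CPM in MEF-2F, and Fosb was at 2.32 CPM against 148 CPM in MEF. By barcode block Fos was at 106 CPM in the first, above pOPC, and at 6.18 CPM in the second. The list of immediate early and heat shock genes had no single direction. Of 17 measured against pOPC 9 were higher and 2 lower in PC (20.6% and 27.7% of all genes by the 2-fold rule). Of 19 against MEF 2 were higher and 10 lower (20.5% and 15.9%). AP-1 is known to bind TGACTCA, which reads TGAGTCA on the other strand. The RefSeq promoters of the 54 genes (GRCm38.p6, 250 bases before to 50 after each start) were searched for TGANTCA, with any middle base. These letters read the same on both strands but for the middle base. GGAATG, the core bound by the YAP partner TEAD, was searched on both strands. TGANTCA begins with TG and ends with CA, with which GGAATG and its reverse end and begin. Matches of the 2 can therefore overlap by those letters. Of the 54 genes 40 have an entry, and 6 of the 40 (15%) hold TGANTCA against 8.97% of all 27025 genes in the table (7.81% of 32851 promoters), while 12 (30%) hold GGAATG against 16.6% of genes (14.7% of promoters). A match describes letters in a window and is no binding site. The shares for TGANTCA count every middle base, so they are not shares of the AP-1 site. 4 promoters are shown because they carry the matches, in capitals, near genes called in PC: Efemp1 (chr11:28852955-28853254, plus strand), Ctla2a (the first of 2 starts, chr13:60936576-60936875, minus strand) and Serpinb2 (the first of 2 starts, chr1:107511173-107511472, plus strand) hold TGANTCA, and Krt20 (chr11:99438104-99438403, minus strand) holds GGAATG on each strand, with 2 matches that share a base on the printed one.
Efemp1: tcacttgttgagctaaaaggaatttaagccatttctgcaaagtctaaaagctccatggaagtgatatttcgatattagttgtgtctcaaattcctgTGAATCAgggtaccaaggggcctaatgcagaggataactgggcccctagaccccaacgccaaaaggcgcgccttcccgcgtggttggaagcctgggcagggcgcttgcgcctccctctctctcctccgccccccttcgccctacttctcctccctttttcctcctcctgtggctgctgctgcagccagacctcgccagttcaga
Ctla2a: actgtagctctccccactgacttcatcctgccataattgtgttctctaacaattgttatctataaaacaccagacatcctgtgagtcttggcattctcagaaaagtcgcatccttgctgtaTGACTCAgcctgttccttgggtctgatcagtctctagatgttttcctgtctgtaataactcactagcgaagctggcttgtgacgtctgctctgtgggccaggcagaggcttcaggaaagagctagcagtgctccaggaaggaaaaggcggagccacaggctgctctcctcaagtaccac
Serpinb2: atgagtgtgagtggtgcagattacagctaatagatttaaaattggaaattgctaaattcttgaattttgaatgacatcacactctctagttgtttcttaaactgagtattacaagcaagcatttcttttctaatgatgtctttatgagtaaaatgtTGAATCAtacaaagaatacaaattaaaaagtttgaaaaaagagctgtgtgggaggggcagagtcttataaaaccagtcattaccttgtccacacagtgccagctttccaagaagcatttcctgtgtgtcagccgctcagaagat
Krt20: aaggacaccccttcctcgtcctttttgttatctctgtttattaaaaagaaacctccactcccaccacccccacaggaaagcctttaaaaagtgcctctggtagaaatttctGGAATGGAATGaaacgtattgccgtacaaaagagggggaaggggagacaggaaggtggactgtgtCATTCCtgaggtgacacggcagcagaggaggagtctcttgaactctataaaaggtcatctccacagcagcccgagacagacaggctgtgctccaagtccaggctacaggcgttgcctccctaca
The matches begin at -154 in Efemp1 (TGAATCA), -129 in Ctla2a (TGACTCA) and -94 in Serpinb2 (TGAATCA). Those of Krt20 begin at -139, -134 and -74. Positions are counted from the first transcribed base at 0. Only the match in Ctla2a has the AP-1 letters named above.

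On the low side, 49 of 10144 genes (0.483%) were at least 4-fold lower in PC than in each other library; without PC-2F and PC-3F the count was 91, and with the first barcode block alone 17. Serpine2, protease nexin 1, an inhibitor of thrombin and plasminogen activators, was at 75.8 CPM (61.6 to 92.4) in PC, 816 CPM in pOPC, 690 CPM in MEF, 5491 CPM in MEF-3F, 7557 CPM in MEF-2F, 5577 CPM in PC-2F and 6022 CPM in PC-3F, 9.1-fold (7.33 to 11.4) under MEF and 73.5-fold (60.2 to 90.7) under PC-2F. Col11a1, a fibrillar collagen chain, was at 44.1 CPM against 229 CPM in pOPC, 617 CPM in MEF and 3101 to 6277 CPM in the 4 converted libraries. Fbn2, fibrillin-2, had 1.55 CPM from 2 UMIs against 119 to 518 CPM elsewhere. For Igfbp2, a carrier of insulin-like growth factors, no UMI was listed in PC whereas the others ran from 95.9 CPM (PC-2F) to 2553 CPM (PC-3F); PC-2F exceeded PC at least 41.3-fold. Other genes of the 49 were Ptprz1, a receptor phosphatase of glial progenitors (0 in PC), Tgfbr1, the type I TGF-beta receptor (7.74 CPM), and the immediate early genes Fos and Nr4a1 (10.1 CPM). In the first barcode block alone Fos was at 106 CPM, not under the 96.5 CPM of pOPC.

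The insulin-like growth factor genes separated PC from MEF. Igf2 was at 3.1 CPM in PC and 6090 CPM in MEF, 1967-fold (768 to 7223) lower in PC, and H19, the noncoding RNA of the same imprinted domain, was at 0 and 3382 CPM. Igf2 was at most 2.18 CPM in the other libraries. Of 11 genes of the system 7 were lower and 1, Igfbp6, higher in PC than in MEF (median log2 ratio -2.35), Igfbp6 with 119 CPM in PC, 11.4 CPM in MEF and at most 4.73 CPM elsewhere. Igfbp7 was at 512 CPM in PC against 1283 CPM in MEF.

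Genes of the PDGF pathway, which holds pericytes on vessels, were more often lower than higher in PC than in MEF. Of 11 measured members 1 was higher and 4 lower (20.5% and 15.9% of all genes by the 2-fold rule). The median log2 ratio was -0.35, beside 0.16 over all genes. The higher one was Pdgfra, at 88.2 CPM in PC and 8.86 CPM in MEF but 1374 CPM in pOPC. Against pOPC 3 of 9 were higher and 3 lower (20.6% and 27.7% of all genes). Against PC-2F 1 of 9 was higher and 2 lower (12.8% and 17.7% of all genes). The ligand Pdgfa was at 92.9 CPM in PC and 69.6 CPM in MEF, Pdgfc at 9.29 and 209 CPM, and Pdgfb had no UMI in PC. Receptors and cleaving enzymes of osteopontin were modest beside Spp1 itself: Cd44 stood at 601 CPM (355 CPM in MEF), Itgb1 at 1011 CPM (1759 CPM in MEF), Itgav at 189 CPM (265 CPM in MEF), and Mmp3 at 1.55 CPM.

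Proliferation genes placed PC between the fibroblasts and the progenitors. Of 25 measured cell cycle genes 16 were higher and 1 lower in PC than in MEF (median log2 ratio 1.57), and 0 higher and 15 lower than in pOPC (median -1.15 beside -0.28 over all genes), where the 2-fold rule called 27.7% of genes lower. Against PC-2F 1 was higher and 0 lower, and against PC-3F 3 were higher and 0 lower. Top2a, topoisomerase II, was at 286 CPM in PC, 147 CPM in MEF, 979 CPM in pOPC and 465 CPM in PC-2F, and Ccnd1, cyclin D1, at 740 CPM in PC and 83.6 CPM in MEF. The growth arrest genes Cdkn1a and Cdkn2a stood at 339 and 16.3 CPM in PC and 1175 and 29.1 CPM in MEF. Sterol and fatty acid synthesis genes gave a like order, 11 higher and 0 lower of 17 against MEF (median 1.17) and 0 higher and 9 lower of 18 against pOPC (median -0.97), with Fasn at 416 CPM in PC, 128 CPM in MEF and 784 CPM in pOPC.

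Secreted signals differed in both directions from the converted pericytes. Of 16 chemokine and cytokine genes measured against PC-2F 6 were higher and 9 lower in PC, with a median log2 ratio of -1.38. Over all genes the 2-fold rule called 12.8% higher and 17.7% lower in PC than in PC-2F. Lcn2, an iron-binding acute phase protein, had no UMI in PC against 3334 CPM in PC-2F and 602 CPM in PC-3F, Cxcl1 was at 6.96 CPM against 457 CPM in PC-2F, and Ccl2 at 275 CPM against 1456 CPM in PC-2F and 89.9 CPM in MEF. Il33, an alarmin kept in the nucleus, was at 366 CPM in PC, 166 CPM in PC-2F, 153 CPM in PC-3F and 0 in MEF and pOPC. Cxcl12, a chemokine of stromal cells, was at 199 CPM in PC and 1414 CPM in MEF and at most 18.9 CPM in the other 5. Of 16 iron and oxidative stress genes measured against PC-2F 5 were higher and 3 lower in PC (median log2 ratio 0.74), the lower share near that of all genes. Of 17 against PC-3F 7 were higher and 4 lower (median 0.37), beside 15% and 18.8% of all genes. Fth1, ferritin heavy chain, was at 7705 CPM in PC, 9910 CPM in PC-2F, 15535 CPM in PC-3F and 1858 CPM in MEF, and Trf, transferrin, at 33.3 CPM in PC against 5870 CPM in PC-2F and 6181 CPM in PC-3F. The metallothioneins Mt1 and Mt2, which bind zinc and copper, stood at 1135 and 556 CPM in PC and at most 512 and 207 CPM elsewhere. Mt2 was at 1391 CPM in the first barcode block and 438 CPM in the second.

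The 2 barcode blocks of PC were alike in most genes and differed in a few. Of 7054 genes measured in 1 of the blocks, 31 (0.439%) were at least 4-fold higher in the first and 2 (0.0284%) higher in the second, with intervals beyond 2-fold, and 14 of the 31 were ribosomal protein genes, pseudogenes or genes without a name. Bst2 (tetherin), an interferon-induced membrane protein that holds back viruses, was at 933 CPM in the first block and 43.3 CPM in the second, 21.6-fold (15.5 to 30.4) apart, and 58.3% of thinned cells of the first block and 5.19% of the second held a UMI. Ifitm3, Oasl2, Irf9 and Ifit3 were among the 31 too (the genes named here were chosen after the blocks' values were seen), Ifit3 at 81.4 CPM and 0. Of 10 interferon and antigen presentation genes measured, 7 were higher in the first block and 0 in the second (4.21% and 4.08% of all genes by the 2-fold rule), and the summed level of the list was 6133 and 2244 CPM. Egr1 was at 407 and 63.6 CPM, Fos at 106 and 6.18 CPM, and Ankrd1, a YAP target, at 319 and 68.9 CPM. Pdgfrb was at 307 and 349 CPM and Efemp1 at 1748 and 1760 CPM, each within counting error of the other block. The direction of the interferon list against PC-3F differed by block: its median log2 ratio to PC-3F was -1.0 for the whole library and ranged from -1.12 to 0.21 over the settings and blocks tried. Its sign also changed against PC-2F (-0.55, range -0.84 to 0.36) and MEF-2F (0.06, range -0.17 to 1.10). Bst2 was called higher than every other library, but its level in the second block, 43.3 CPM, was close to the 28.4 CPM of PC-2F.

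**Figure D4:**
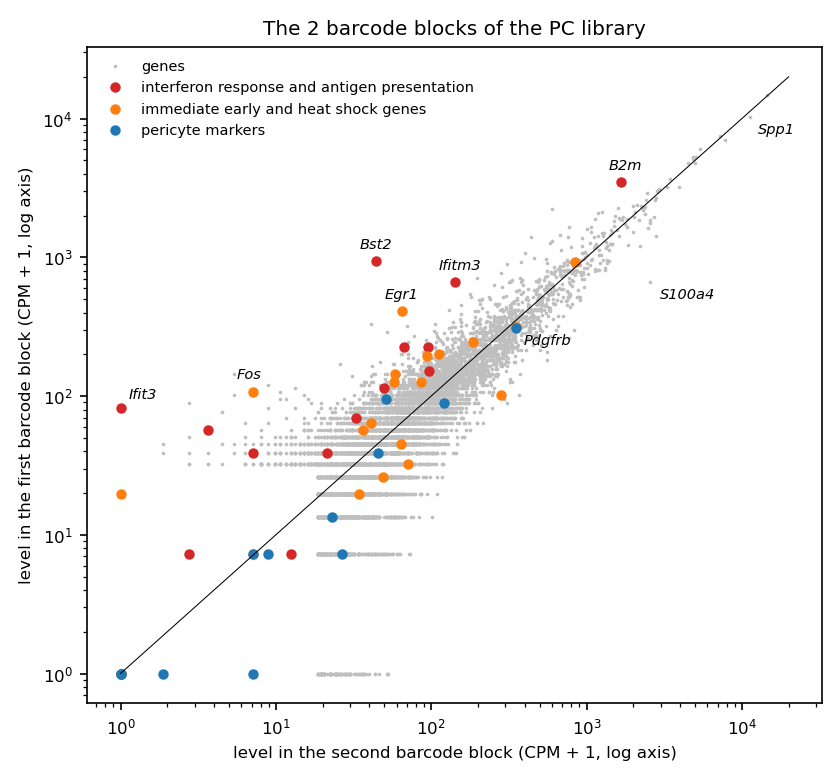
Level of each gene in the first barcode block of PC (39 cells, vertical axis) against the second (251 cells, horizontal axis), in CPM + 1 on log axes, with the line of equal levels. Interferon genes such as Bst2 (933 and 43.3 CPM) lie above the line, S100a4 (658 and 2560 CPM) lies below it, and Spp1 and Pdgfrb lie near it.

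Among single PC cells, thinned to 1000 UMIs, genes differed in how evenly they were spread. Cells are not replicates, so this is a description. Unevenness, the variance less the mean divided by the squared mean, is near 0 for counts that vary by sampling alone. It was 24.7 for Igfbp3, seen in 5.62% of 267 cells with up to 10 UMIs in 1 cell, 8.82 for Sepp1, the selenium carrier, 5.48 for Il33, 4.55 for Ccl2, 3.66 for Krt19 and 2.54 for Fn1. Spp1 had 1.02 and S100a4 0.65. Krt20 differed from Krt19 in this respect, with -0.05 and no cell above 2 UMIs.

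Krt19, Krt20 and Msln, chosen for this after their levels were seen, differed in which cells they shared. A UMI of Krt19 was found in 56 of 267 thinned cells (21%, 16.2 to 26.4), of Krt20 in 32 and of Msln in 22. Of the 22 cells with Msln 11 held Krt19 (50%, 28.2 to 71.8), of the 32 with Krt20 2 held Krt19 (6.25%, 0.766 to 20.8), and no cell held both Krt20 and Msln (0% of the 32, 0 to 10.9). That last interval holds the 8.24% of all cells with Msln, so the counts do not show that Krt20 and Msln exclude each other. In all, 97 cells (36.3%, 30.6 to 42.4) held at least 1 of the 3. These were split, after their values were seen, into the 32 cells with Krt20 and the 65 with Krt19 or Msln and no Krt20, and set beside the 170 cells with none of the 3. Col1a2 was at 3313 (2712 to 4006), 3277 (2852 to 3748) and 3029 CPM (2773 to 3303) in that order, with intervals that overlap. Spp1 was at 11688 (10533 to 12934), 6246 (5653 to 6884) and 13012 CPM (12475 to 13566), lowest in the 65 cells. Pdgfrb was at 594 (357 to 927), 185 (95.4 to 322) and 429 CPM (337 to 540), again lowest in the 65 cells. Il33 had 8, 2 and 49 UMIs, which is 30.8 CPM (3.73 to 111) in the 65 cells and 288 CPM (213 to 381) in the 170. Igfbp6 was at 93.8 (19.3 to 274), 231 (129 to 381) and 58.8 CPM (28.2 to 108), and for Krt7 all 7 UMIs were in the 65 cells.

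**Figure D5:**
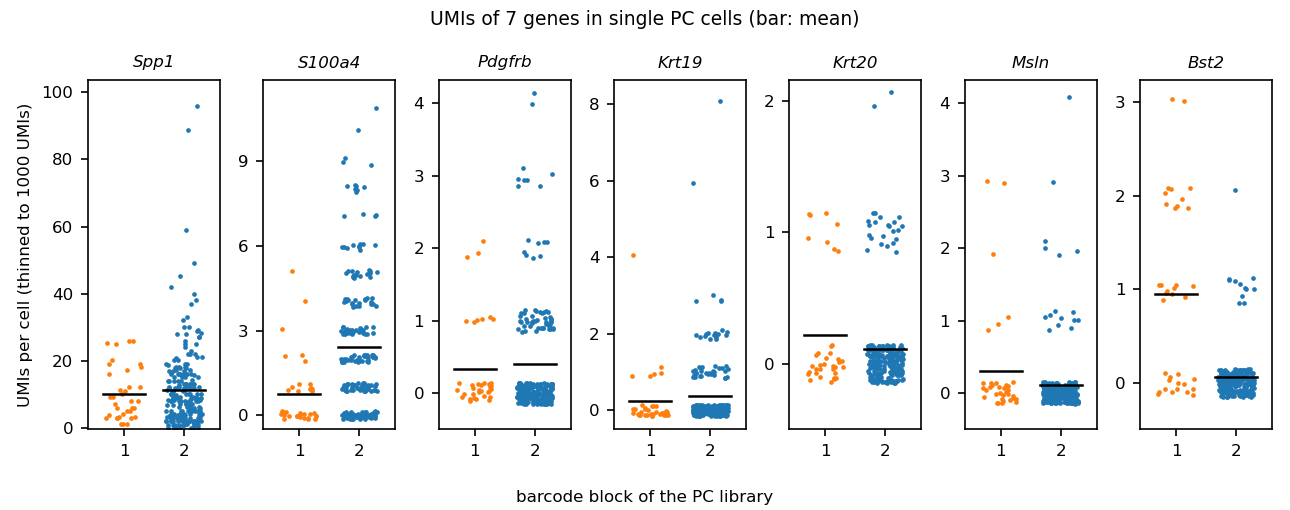
UMIs of 7 genes in each of the 267 PC cells thinned to 1000 UMIs, split by barcode block (horizontal axis; the black bar is the mean, points are shifted at random so that they do not overlap). Spp1 is present in 95.9% of cells, Krt19, Krt20 and Msln are at 0 in most, and Bst2 is found in 58.3% of cells of the first block and 5.19% of the second.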

How the data were processed

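Transcripts of single cells were counted in 7 libraries, 1 per population, made with a droplet 3′ kit that adds UMIs. Reads had been processed with STAR 2.5.3a (mm10 genome), featureCounts 1.6.1, UMI-tools 0.5.3 and bcl2fastq 2.19.1.403, per the submitters' processing notes. The tables deposited by the authors hold whole-number codes, in no unit that the labels name: each code is the place of a UMI count in the text-sorted list of the counts that occur in a block of barcodes. That is inferred from the values alone. Each block was decoded on its own from how often each code occurs and from the levels of each gene, and 98.1% of PC UMIs came from codes whose count had a probability above 0.99. The design had assumed counts, and codes were found. 

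Barcodes with 500 or more UMIs were kept. A gene was measured in a comparison at 10 UMIs and 20 CPM in 1 of the 2 libraries. Gene counts used 4-fold with an interval wholly beyond 2-fold, and lists used 2-fold with an interval that excludes 1. For medians 0.5 UMIs were added per library, and a list needed 3 measured members. Shares of cells come from cells thinned to 1000 UMIs (23 PC cells were shallower). Doublets were not removed. Intervals have 95% confidence and cover counting error only. With 1 library per population no test across samples was possible. Gene positions are from the GENCODE annotation of GRCm38 and promoters from RefSeq tables of GRCm38, both matched by symbol.

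The members and the gene lists were chosen with earlier results of these data known. Named genes are the 25 most abundant, up to 25 of those higher than every other library at 100 CPM and 30 UMIs, 12 uneven ones and members of the 33 lists. A further 20 had the lowest ratio of PC to the lowest other library, called lower or not. They were taken from genes at 100 CPM and 30 UMIs in each other library. Mitochondrial, ribosomal protein and unnamed genes were left out. A few others were named after their values were seen (the Y-linked genes and Xist, Kitl, Tsc22d3, Tgfbr1, Nr4a1, and Irf9 and Oasl2 among the genes that differ between blocks). Alternatives were other minimums, another scaling, other cell filters, each block alone, another decoding and other thinning. Some genes are not reported here. The scripts were checked on simulated data. Python 3.11.15, numpy 2.4.6, scipy 1.17.1, pandas 2.3.3 and matplotlib 3.10.9 were used.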

Additional observations from a re-analysis of the deposited data

How the results depend on the processing

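No paired analysis was possible because each population is 1 library and no result comes from a test across samples. Of 172 values of the 14 gene counts under alternatives, 150 stayed within 1.5 times. With a minimum of 100 CPM, fewer genes were measured: 425 were higher and 355 lower in PC than in pOPC, 149 and 174 than in MEF, 297 and 353 than in MEF-3F, 134 and 245 than in PC-2F, and 166 and 261 than in PC-3F, 404 were lower than in MEF-2F, and 5 lower than in every other library. With the first PC block alone (39 cells), 534 were lower than in pOPC, 263 than in MEF, 485 than in MEF-2F, 447 than in MEF-3F, 313 than in PC-2F and 336 than in PC-3F, and 84 were higher and 17 lower than in every other library. Alternatives chosen after seeing the data gave 88 genes higher than every other library without MEF-2F, and 91 lower without PC-2F and PC-3F. Of 180 list medians 151 kept 1 sign under every alternative run and 29 changed it. Of 86 named levels, 78 stayed inside their counting interval with confident codes only, 71 with the second block only and 14 with the first block only. Shares of cells depend on depth: thinned to 2000 UMIs, 14 of 86 stayed inside their interval. At the depth of PC, 3 UMIs are 2.32 CPM, and in MEF-2F 13.1 CPM, so low levels there were not detectable.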
